A study of Mus musculus with 8 samples.

Results

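Follicular helper genes were followed in CD4 T cells recovered from RAG-deficient mice after adoptive transfer. The set was defined by symbol and holds the cytokine Il21 and the homing receptor Cxcr5, the lineage regulators Bcl6, Ascl2 and Tox2, and the costimulators and signalling partners Icos, Pdcd1, Sh2d1a and Cd200. Of these 9 genes, 8 had a row among the 11354 genes of the count table, and Ascl2 was not analysed here. Poly(A) RNA was sequenced from 4 libraries labelled Nlrp6 knock-out and 4 labelled wild type, all of Black6 background, each from a RAG-/- host, with hosts numbered 1, 2, 4 and 5 under either label. The libraries are called KO 1, KO 2, KO 4 and KO 5, and WT 1, WT 2, WT 4 and WT 5. Cells of both genotypes had been given in equal numbers, per the design text, and neither the Nlrp6 allele nor the RAG gene deleted in the hosts is specified. The labels conflict on tissue: the colonic lamina propria stands in the design text and extraction protocol, and the spleen of the host in the source and cell type fields. Within a label each library has its own host number, so p-values measure spread between hosts. Whether a host number stands for a single mouse under both labels is not stated, nor whether the transferred cells came from separate donors.

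Follicular helper cells are CD4 T cells that enter B cell follicles and help B cells in germinal centres. The transcriptional repressor BCL6 directs the lineage, CXCR5 guides the cells towards the follicle, ICOS and the adaptor SAP pass on contact signals from B cells, and IL-21 acts on the responding B cells. None of these genes is exclusive to the lineage: IL-21 is also made by Th17 cells, PD-1 by many activated T cells, and CXCR5 and BCL6 by B cells. RAG-deficient hosts make no B or T cells of their own.

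Libraries held 35198192 to 40310721 counts. Nlrp6, the NOD-like receptor gene that the labels are about, went against them, with 487, 329, 477 and 648 counts in KO 1, KO 2, KO 4 and KO 5, and 5, 3, 3 and 8 counts in WT 1, WT 2, WT 4 and WT 5 (log2 fold change 6.70 ± 0.32 SE, edgeR adjusted p = 4.07e-06). Every direction below is therefore that of libraries labelled knock-out against libraries labelled wild type, not of a genotype. All 14 genes of a T cell identity list, such as the CD3 chains and Cd4, were measured, at a summed 9647 to 10544 CPM (counts scaled to a common library size) in libraries labelled knock-out and 10209 to 11442 CPM in those labelled wild type. Of 10 B cell genes 1 was analysed, Cd22, at 1.11 to 1.87 CPM under the knock-out label and 1.22 to 1.98 CPM under the wild-type label. The 20 myeloid genes, all measured in both labels, summed to 443, 705, 1209 and 889 CPM in KO 1, KO 2, KO 4 and KO 5, and to 162 to 207 CPM in libraries labelled wild type. Of those 20 genes 18 rose, as did 8 of 9 neutrophil genes and 7 of 10 genes of dendritic cells and antigen presentation. Over all genes 6.20% were called higher. An example of the risers was Csf1r (log2 fold change 3.95 ± 0.39 SE, edgeR adjusted p = 3.81e-04). Genes of natural killer and innate lymphoid cells summed to 281 to 337 and 262 to 350.0 CPM under the knock-out and wild-type labels, those of endothelial and stromal cells to 1372 to 1735 and 1273 to 1502 CPM, and epithelial genes to 34.2 to 38.9 and 29.2 to 44.2 CPM. In the T cell list Zap70 and Cd247, kinase and receptor chain of T cell receptor signalling, fell by 0.27 and 0.40 log2 units (edgeR adjusted p = 0.0304 and 0.0444). Over all genes 3.84% were called lower. These calls were kept in 3 of 8 and 2 of 8 refits with a library dropped, and neither when scaled on the T cell identity genes. Of the 14 T cell genes 12 had a negative log2 fold change, with a median of -0.10. The part of these other cells in the results below was not tested, and in bulk RNA fewer cells of a type and less RNA per cell cannot be told apart.

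Il21 and Cxcr5, the secreted product and the homing receptor of the set, fell in libraries labelled knock-out, being 2.52-fold and 3.32-fold lower than under the wild-type label. None of the other 6 measured members passed the test at a Benjamini-Hochberg adjusted p below 0.05 over all genes, and 5 of those 6 had a negative log2 fold change. Bcl6, the lineage regulator, was the single member with a positive one. The count of 2 called members of 8 stands beside 10.0% of all genes called in either direction, 3.84% called lower and 6.20% called higher. The labels did not overlap for 3 members, Il21 and Cxcr5 lower and Bcl6 higher, beside 16.0% of all genes. The median log2 fold change was -0.54 over the 8 members and -0.0026 over all genes tested. At an unadjusted p below 0.05 the count was 7 of 8 members, with Icos as the exception, beside 23.5% of all genes. DESeq2 called 5 of the 8, Il21, Cxcr5, Tox2 and Sh2d1a lower and Bcl6 higher, beside 13.9% of all genes. Without KO 2 and KO 4, edgeR called Il21, Cxcr5 and Pdcd1, 3 of the 8, beside 7.27% of all genes.

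Il21 encodes interleukin 21, a cytokine that signals through a receptor shared in part with interleukin 2, and lies on the minus strand of chromosome 3 from 37222759 to 37232636 (GRCm38, the assembly that mm10 names). It was at 48.6, 36.6, 50.5 and 56.5 CPM in KO 1, KO 2, KO 4 and KO 5, and at 153, 90.5, 129 and 112 CPM in WT 1, WT 2, WT 4 and WT 5. The highest library labelled knock-out lay below the lowest labelled wild type, a separation in that direction seen for 7.37% of all genes. Il21 averaged 48.0 ± 8.35 and 121 ± 26.4 CPM under the knock-out and wild-type labels (SD, n = 4 each), so that the label difference was -1.33 ± 0.17 SE on the log2 scale (edgeR adjusted p = 9.97e-04). Dropping any single library kept the call in 8 of 8 refits, with values from -1.46 to -1.20. By size of the fall Il21 ranked 43 and Cxcr5 28 among the 436 genes called lower.

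Cxcr5 encodes the receptor for the follicular chemokine CXCL13 and lies on the minus strand of chromosome 9 from 44511787 to 44526444. Its levels were 14.8, 9.73, 19.3 and 11.2 CPM in KO 1, KO 2, KO 4 and KO 5, against 68.6, 45.0, 37.3 and 31.3 CPM in WT 1, WT 2, WT 4 and WT 5. Again the labels did not overlap, although the spread was wide on both sides, 1.99-fold from lowest to highest under the knock-out label and 2.19-fold under the wild-type label. Means were 13.8 ± 4.27 and 45.6 ± 16.4 CPM (SD, n = 4 each), and the log2 fold change was -1.73 ± 0.27 SE (edgeR adjusted p = 0.00316). With any single library dropped it ranged from -1.94 to -1.47, the smallest fall being that without WT 1, and the call held in 8 of 8 refits. Its biological coefficient of variation in the edgeR fit, 0.263, was above that of 93.7% of all genes, and for Il21 it was 0.167, above 82.8%.

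**Figure D1:**
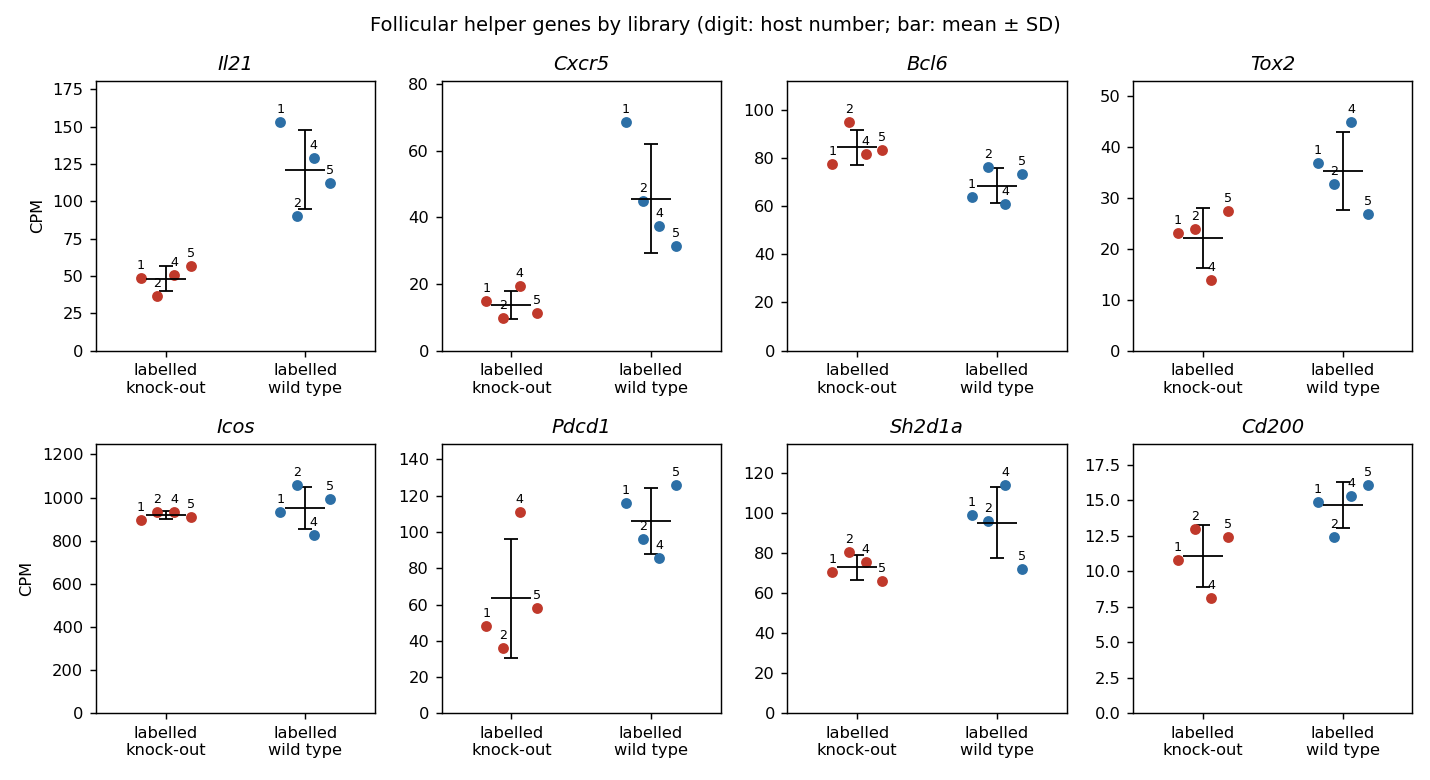
CPM of the 8 measured follicular helper genes in each library (linear axes from 0), libraries labelled knock-out on the left and labelled wild type on the right of each panel. Points are libraries with their host number and bars are mean ± SD (n = 4). Il21 and Cxcr5 do not overlap between labels, with Il21 at 36.6 to 56.5 CPM under the knock-out label and 90.5 to 153 CPM under the wild-type label, and Pdcd1 in KO 4, at 111 CPM, lies among the libraries labelled wild type.

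The sample descriptions carry a code, 8 for KO 4 and KO 5 and 7 for the other 6 libraries, whose meaning is not given. With that code as a term, which takes the difference from KO 1 and KO 2 against the libraries labelled wild type, the log2 fold changes were -1.51 for Il21 (edgeR adjusted p = 0.00284) and -1.89 for Cxcr5 (edgeR adjusted p = 0.0152). Code 8 holds libraries of the knock-out label alone and gives no value of its own. Scaling on the T cell identity genes in place of all genes gave -1.24 and -1.64. The mean log2 CPM of the myeloid genes was 3.65 to 5.18 under the knock-out label and 1.17 to 2.05 under the wild-type label, with no overlap. With that level as a covariate 7 genes were called in all, and neither Il21 (-1.79, adjusted p = 0.626) nor Cxcr5 (-2.78, adjusted p = 0.536) was among them, so label and myeloid level cannot be told apart. Across KO 1, KO 2, KO 4 and KO 5 the summed myeloid level was 443, 705, 1209 and 889 CPM. In these libraries Il21 and Cxcr5 were both lowest in KO 2, and Il21 was highest in KO 5 and Cxcr5 in KO 4. A relation of either gene to the myeloid level was not tested.

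Neighbouring genes on the chromosome, chosen by position after the values of Il21 and Cxcr5 were known, showed no fall of that size. The closest measured genes to Il21 were Il2, the gene of the related cytokine interleukin 2, 96805 bases away, and Cetn4, a centrin gene, 75991 bases away. Il2 was at 2.27 to 5.60 CPM under the knock-out label and 1.71 to 2.94 CPM under the wild-type label (log2 fold change 0.78 ± 0.31 SE, edgeR adjusted p = 0.155), and Cetn4 had -0.44 ± 0.18 (edgeR adjusted p = 0.186). The 3' end of Cxcr5 overlaps Bcl9l, a Wnt pathway coactivator gene on the opposite strand, which was at 58.1 ± 6.59 and 58.5 ± 7.71 CPM under the knock-out and wild-type labels. On the other side Ddx6, an RNA helicase gene, was at 548 ± 51.3 and 554 ± 13.7 CPM (SD, n = 4 each). Because the strand setting of the counting is not given in the sources used here, reads from overlapping genes on opposite strands cannot be told apart. Such overlaps were Cxcr5 with Bcl9l, Il21 with the antisense transcript Gm12534, Bcl6 with Gm37419 and Sh2d1a with Tenm1.

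The 250 bases before the transcript start are shown for Il21, the called cytokine, and for Bcl6, the member with the opposite sign, as RefSeq's GRCm38.p6 entries, 5' to 3' on the gene's strand (chr3:37232637-37232886 and chr16:23988853-23989102, both minus). Capitals mark matches to GGAAA, the core of sites bound by NFAT, the factor activated by calcium downstream of the T cell receptor, read on both strands.
Il21: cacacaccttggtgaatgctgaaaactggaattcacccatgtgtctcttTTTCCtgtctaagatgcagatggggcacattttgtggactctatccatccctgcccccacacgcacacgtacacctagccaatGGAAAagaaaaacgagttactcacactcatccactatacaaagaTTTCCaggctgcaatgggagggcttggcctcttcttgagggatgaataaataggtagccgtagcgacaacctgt
Bcl6: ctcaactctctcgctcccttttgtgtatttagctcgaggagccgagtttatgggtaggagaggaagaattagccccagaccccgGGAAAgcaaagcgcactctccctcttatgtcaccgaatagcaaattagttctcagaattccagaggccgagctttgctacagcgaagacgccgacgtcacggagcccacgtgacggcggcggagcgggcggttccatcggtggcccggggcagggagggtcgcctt
The Il21 stretch held 3 such matches and the Bcl6 stretch 1, where 55.6% of the 32851 promoter windows of the same length hold at least 1. The share of windows with 3 or more was not counted. The Bcl6 stretch also held 1 match to TTCNNNGAA, letters shared by STAT and BCL6 sites, which 7.02% of windows hold, and the Il21 stretch held 0. Neither held TGANTCA, the AP-1 letters, which 6.75% of windows hold. No matches of different motifs overlapped within the printed stretches. A second Bcl6 entry, for an inner start (chr16:23981284-23981533), held 3 GGAAA matches, as many as Il21, and 3 TTCNNNGAA matches. Entries were found for 5 of the 8 measured members, without Cxcr5, Icos and Sh2d1a. A match in letters is a description and not a site of binding.

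Among the lineage regulators, Bcl6 was higher in every library labelled knock-out than in any labelled wild type, but did not pass the adjusted test. Bcl6, on the minus strand of chromosome 16 from 23965050 to 23988866, was at 77.5, 94.8, 81.5 and 83.4 CPM in KO 1, KO 2, KO 4 and KO 5, and at 63.9, 76.2, 60.8 and 73.1 CPM in WT 1, WT 2, WT 4 and WT 5. The gap between KO 1 and WT 2 is small beside the SD of 7.40 and 7.34 CPM under the knock-out and wild-type labels, and such a separation upward was seen for 8.60% of all genes. The log2 fold change was 0.30 ± 0.086 SE (edgeR adjusted p = 0.0588). Bcl6 passed without WT 2 (0.35, edgeR adjusted p = 0.0476), the 1 call in 8 refits with a library dropped. It also passed with T cell identity genes as the scale (0.39, edgeR adjusted p = 0.0280) and in DESeq2 (0.30, DESeq2 adjusted p = 0.0143). Bcl6 is also expressed by macrophages and B cells.

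Tox2, a DNA-binding HMG box factor that supports the follicular helper programme in mice, was at 23.1, 24.0, 13.8 and 27.5 CPM in KO 1, KO 2, KO 4 and KO 5, and at 36.8, 32.8, 44.9 and 26.8 CPM in WT 1, WT 2, WT 4 and WT 5. KO 5 lay above WT 5, so the labels overlapped, and KO 4 was the lowest of all 8 libraries. Tox2 lies on the plus strand of chromosome 2 from 163203058 to 163324172. Its log2 fold change was -0.68 ± 0.21 SE (edgeR adjusted p = 0.0785), and DESeq2 called it (adjusted p = 0.0104).

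Icos, the costimulatory receptor that is needed to keep follicular helper cells, lies on the plus strand of chromosome 1 from 60960773 to 61000322. It had the highest level per kilobase of the members and the lowest coefficient of variation under either label. Its levels were 896, 933, 933 and 909.6 CPM in KO 1, KO 2, KO 4 and KO 5, and 931, 1059, 827 and 992 CPM in WT 1, WT 2, WT 4 and WT 5. The libraries labelled knock-out all fell inside the range of those labelled wild type. The log2 fold change was -0.053 ± 0.07 SE (edgeR adjusted p = 0.726), and 0.035 when scaled on T cell identity genes.

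Sh2d1a encodes SAP, the adaptor that links SLAM family receptors to the kinase Fyn and that T cells need for lasting contact with B cells, on the plus strand of chromosome X from 42502565 to 42522097. Its level was 70.5, 80.3, 75.4 and 65.8 CPM in KO 1, KO 2, KO 4 and KO 5, against 99.1, 96.0, 114 and 71.8 CPM in WT 1, WT 2, WT 4 and WT 5. WT 5 lay within the range of the libraries labelled knock-out and the other libraries labelled wild type lay above it. The log2 fold change was -0.38 ± 0.12 SE (edgeR adjusted p = 0.0923), and -0.50 without WT 5 (edgeR adjusted p = 0.00722). Of 8 refits with a library dropped, Sh2d1a passed in that 1.

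Cd200, whose surface protein engages an inhibitory receptor on myeloid cells, lies on the minus strand of chromosome 16 from 45382111 to 45409060 and had the lowest level per kilobase. It was at 10.8, 13.0, 8.15 and 12.4 CPM in KO 1, KO 2, KO 4 and KO 5, and at 14.9, 12.4, 15.3 and 16.1 CPM in WT 1, WT 2, WT 4 and WT 5. Only WT 2 reached down into the range of the knock-out label. The log2 fold change was -0.41 ± 0.14 SE (edgeR adjusted p = 0.119), and it passed in 0 of 8 refits with a library dropped.

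Pdcd1, the gene of the inhibitory receptor PD-1, lies on the minus strand of chromosome 1 from 94038305 to 94052553. Whether it passed depended on KO 4 and on the model. It was at 48.1, 36.2, 111 and 58.3 CPM in KO 1, KO 2, KO 4 and KO 5, and at 116, 96.3, 85.7 and 126 CPM in WT 1, WT 2, WT 4 and WT 5. KO 4 lay inside the range of the wild-type label, and the other 3 libraries labelled knock-out lay below it. With all libraries the log2 fold change was -0.75 ± 0.30 SE (edgeR adjusted p = 0.168), and without KO 4 it was -1.16 (edgeR adjusted p = 0.00280). Of 8 refits with a library dropped, Pdcd1 passed in that 1. Pdcd1 was also called with the description code as a term (-1.33, edgeR adjusted p = 0.0184) and in limma with library quality weights (-1.07, limma adjusted p = 0.0126). KO 4 also had the highest summed myeloid level, 1209 CPM, the lowest Tox2 and Cd200 and the highest Cxcr5 of the libraries labelled knock-out.

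**Figure D2:**
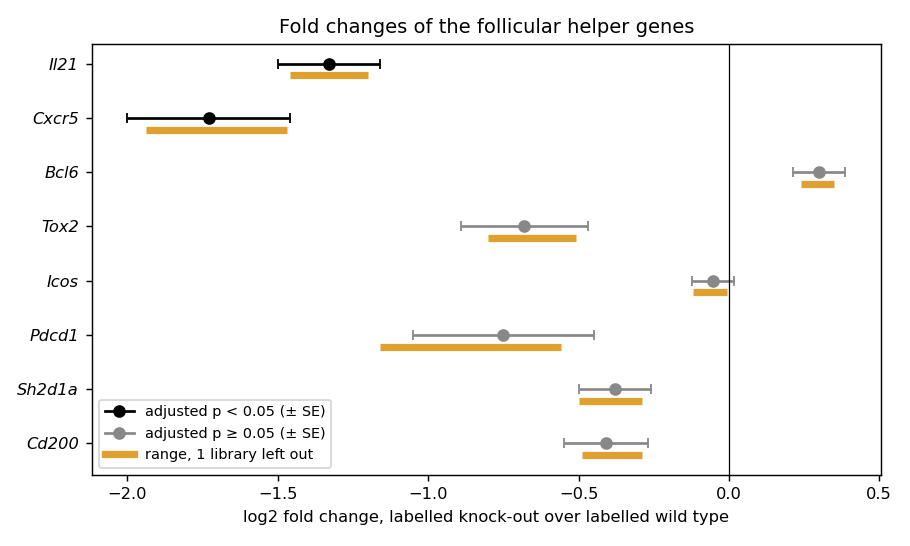
Log2 fold changes (knock-out label over wild-type label) of the 8 members, with SE (points and whiskers, black where the edgeR adjusted p was below 0.05, grey otherwise) and the range over 8 refits with a library dropped (orange). Il21 at -1.33 and Cxcr5 at -1.73 lie furthest from 0, and the range of Pdcd1 reaches -1.16.

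Per kilobase of the deposited gene length, the members kept a similar order under both labels, with 1 shift. Icos led at 282 ± 5.54 and 293 ± 30.2 CPM per kilobase under the knock-out and wild-type labels, then Sh2d1a at 74.7 ± 6.42 and 97.3 ± 17.7, then Pdcd1 at 32.8 ± 17.0 and 55.0 ± 9.54 (SD, n = 4 each). Il21 was the fifth under the knock-out label, at 15.1 ± 2.63 CPM per kilobase, below Bcl6 at 25.7 ± 2.25 with no overlap between their libraries. Under the wild-type label Il21 was the fourth, at 38.0 ± 8.30, and Bcl6 the sixth, at 20.8 ± 2.23 CPM per kilobase, also with no overlap. Cxcr5 was the seventh under both labels, at 5.23 ± 1.62 and 17.3 ± 6.21 CPM per kilobase. Its range met that of Cd200 (4.49 ± 0.874 CPM per kilobase) under the knock-out label and that of Bcl6 under the wild-type label. Neighbours whose ranges overlapped were otherwise Pdcd1 with Bcl6 and Il21 with Tox2 under the knock-out label, and Pdcd1 with Il21 and Tox2 with Bcl6 under the wild-type label.

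Set against the other members of the same library, Il21 and Cxcr5 were lower under the knock-out label. The log2 CPM of Il21 minus the mean log2 CPM of the other 6 members was -0.36, -0.84, -0.35 and -0.27 in KO 1, KO 2, KO 4 and KO 5, and 0.84, 0.14, 0.63 and 0.46 in WT 1, WT 2, WT 4 and WT 5. For Cxcr5 the same difference was -2.07, -2.75, -1.74 and -2.59 in libraries labelled knock-out, and -0.31, -0.87, -1.16 and -1.37 in those labelled wild type. The mean of the other 6 members was itself lower, at 6.03 ± 0.052 and 6.37 ± 0.029 log2 CPM (SD, n = 4 each). Averaged over Il21 and Cxcr5, the label difference in this quantity was -1.17 log2 units, and -1.28 to -1.01 with 1 library left out. It is given without a test because the members were chosen with results known. The ratio of Il21 to Bcl6 CPM was 0.386 to 0.677 under the knock-out label and 1.19 to 2.39 under the wild-type label.

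**Figure D3:**
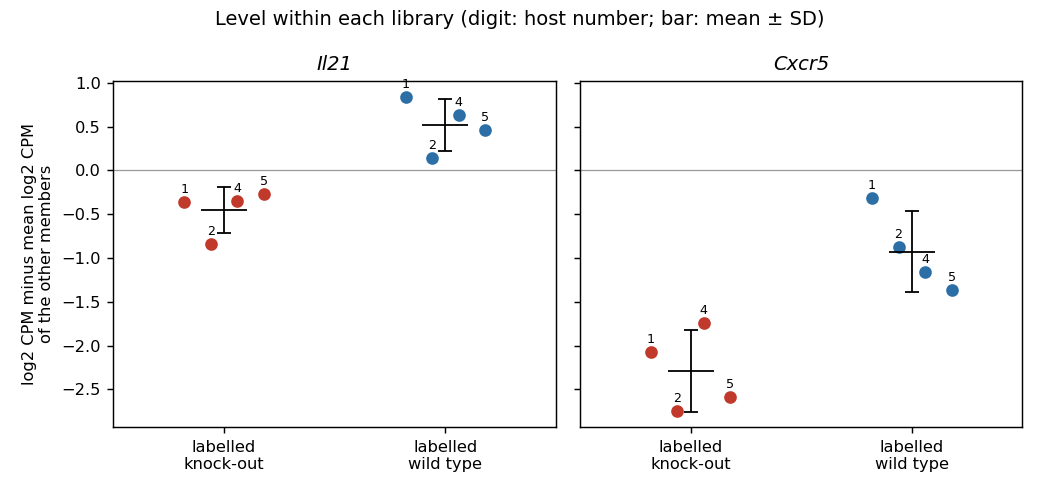
Log2 CPM of Il21 and of Cxcr5 minus the mean log2 CPM of the other 6 members in the same library, knock-out label on the left and wild-type label on the right of each panel, with host numbers and mean ± SD (n = 4). Il21 lies between -0.84 and -0.27 under the knock-out label and between 0.14 and 0.84 under the wild-type label.

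Other genes of the follicular helper programme moved in both directions. Of 21 measured genes on a wider list, 4 fell and 4 rose, beside 3.84% of all genes called lower and 6.20% called higher. The other 13 did not pass, and the median log2 fold change was -0.18. Those that fell were Tnfrsf4 (OX40, a costimulatory receptor), Slamf6 (a SLAM receptor that uses SAP), Batf (an AP-1 factor needed for the lineage) and Egr2 (a factor induced by the T cell receptor). Tnfrsf4 was at 179 ± 22.4 and 269.7 ± 23.4 CPM under the knock-out and wild-type labels (SD, n = 4 each; log2 fold change -0.59 ± 0.10 SE, edgeR adjusted p = 0.00343). Slamf6 was at 65.4 ± 8.18 and 98.8 ± 12.9 CPM (-0.60 ± 0.11, adjusted p = 0.00674), with no overlap between labels, and was not called without KO 2 and KO 4 (adjusted p = 0.0502). Batf had -0.31 ± 0.069 (adjusted p = 0.0191) and -0.30 without KO 2 and KO 4 (adjusted p = 0.0972), and Egr2 had -0.43 ± 0.11 (adjusted p = 0.0333), a call kept in 2 of 8 refits with a library dropped.

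The risers on that list were Tcf7, Id3, Cebpa and Cd83. Tcf7 encodes TCF-1, a factor that acts upstream of BCL6 and also marks memory T cells. It was at 372 ± 41.6 and 243 ± 28.4 CPM under the knock-out and wild-type labels (0.61 ± 0.10, edgeR adjusted p = 0.00350). Id3, an inhibitor of E proteins, was at 8.34 ± 1.83 and 4.70 ± 1.24 CPM (0.83 ± 0.21, adjusted p = 0.0347), and its call was kept in 2 of 8 refits with a library dropped. Cebpa and Cd83, best known from myeloid and dendritic cells, had log2 fold changes of 2.16 ± 0.35 (adjusted p = 0.00334) and 2.13 ± 0.41 (adjusted p = 0.00878). Both were lowest under the knock-out label in KO 1 and highest in KO 4, as was the summed myeloid level. Batf, Id3 and Cd83 were named after their values were seen.

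**Figure D4:**
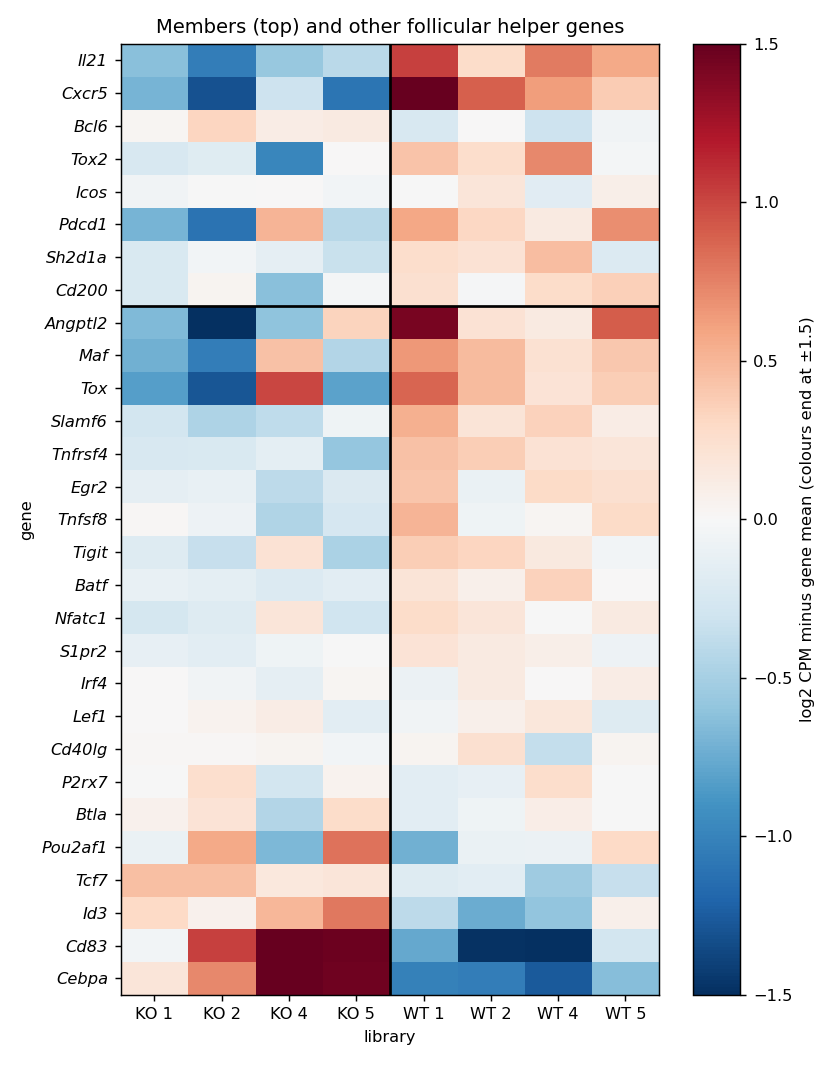
Log2 CPM of each gene minus its mean over the 8 libraries, for the 8 members (top block) and 21 other follicular helper genes (lower block, ordered by fold change), with libraries labelled knock-out on the left. Colours end at ±1.5 log2 units. Tcf7, Id3, Cd83 and Cebpa are redder on the left, and in KO 4 Pdcd1, Maf and Tox are redder than in the other libraries labelled knock-out.

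Maf and Tox, named after their values were seen, were highest in KO 4 among the libraries labelled knock-out, as was Pdcd1. Maf, a factor that drives Il21 transcription, was at 145, 117, 326 and 177 CPM in KO 1, KO 2, KO 4 and KO 5, and at 280.3 to 378 CPM under the wild-type label. Tox, a relative of Tox2, was at 21.7, 15.7, 77.2 and 22.1 CPM in the same libraries labelled knock-out, and at 44.3 to 70.6 CPM under the wild-type label. With all libraries neither passed (edgeR adjusted p = 0.119 for Maf and 0.424 for Tox). Without KO 4 the log2 fold changes were -1.16 (edgeR adjusted p = 8.15e-04) and -1.46 (edgeR adjusted p = 7.69e-04). Each of the pair was called in 1 of 8 refits with a library dropped, the refit without KO 4.

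Genes known to oppose the follicular helper fate showed 1 call among 16, beside 10.0% of all genes called in either direction. Ccr7, a lymph node homing receptor that dendritic cells also carry, rose, with 14.1 ± 2.12 and 7.05 ± 1.79 CPM under the knock-out and wild-type labels (log2 fold change 1.00 ± 0.18 SE, edgeR adjusted p = 0.00692), and lost its call without KO 2 and KO 4. Prdm1, the gene of BLIMP-1, a repressor that antagonises BCL6, was at 159, 149, 237 and 170.2 CPM in KO 1, KO 2, KO 4 and KO 5 and at 234 to 245 CPM under the wild-type label. Its log2 fold change was -0.41 ± 0.13 with all libraries (edgeR adjusted p = 0.0764) and -0.58 without KO 4 (edgeR adjusted p = 1.73e-04), the 1 call in 8 refits with a library dropped. Prdm1 gained a call under 6 of 19 alternatives. Among these, DESeq2 (-0.41, DESeq2 adjusted p = 0.0116), scaling by total library size (-0.43, edgeR adjusted p = 0.0441) and limma with library quality weights (-0.53, limma adjusted p = 0.00514) kept KO 4. The fit with the description code (-0.62, edgeR adjusted p = 0.0122) takes the difference from KO 1 and KO 2. Foxo1 (0.23 ± 0.077, adjusted p = 0.108) and the IL-2 receptor gene Il2ra (0.66 ± 0.25, adjusted p = 0.139) did not pass. The median over this list was 0.061.

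Receptors and kinases for IL-21 and IL-6 showed 2 calls among 14, both upward. Over all genes 10.0% were called in either direction and 6.20% were called higher. Il2rg, the common gamma chain that the IL-21 receptor uses, was at 886 ± 38.7 and 755 ± 47.4 CPM under the knock-out and wild-type labels (0.23 ± 0.055, edgeR adjusted p = 0.0283), and its call was kept in 2 of 8 refits with a library dropped. Il6ra, the IL-6 receptor alpha chain that myeloid cells also express, was at 5.15 ± 2.20 and 2.26 ± 0.627 CPM (1.19 ± 0.33, adjusted p = 0.0498), and its call was kept in 1 of 8. Il6st, the shared signalling chain of the IL-6 family, had 0.27 ± 0.086 and the kinase gene Tyk2 had -0.18 ± 0.058 (adjusted p = 0.0847 for each). The list's median was 0.077.

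SLAM receptors and partners of SAP had 2 falls and 1 rise among 9 measured genes, beside 3.84% of all genes called lower and 6.20% called higher. Besides Slamf6, the receptor gene Cd84 fell, with 186 ± 10.2 and 237 ± 14.1 CPM under the knock-out and wild-type labels (-0.35 ± 0.056, edgeR adjusted p = 0.00314). Cd244, a SLAM receptor of natural killer and myeloid cells, rose (2.28 ± 0.35, adjusted p = 0.00264), at 2.33 to 5.16 CPM under the knock-out label and 0.481 to 1.25 CPM under the wild-type label. The kinase gene Fyn had -0.19 ± 0.073 (adjusted p = 0.148), and the list's median was -0.043.

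Costimulatory ligands, receptors and signalling genes, not all of them partners of ICOS, PD-1 or CD200, had 4 rises and 2 falls among 11 genes. Over all genes 6.20% were called higher and 3.84% lower. Cd80 (0.79 ± 0.13, edgeR adjusted p = 0.00446) and Cd86 (0.67 ± 0.17, adjusted p = 0.0322) rose. They encode ligands carried by antigen-presenting cells, which are not ligands of ICOS or PD-1. Cd274 (0.50 ± 0.11, adjusted p = 0.0157), the gene of the PD-1 ligand PD-L1, rose, as did Pik3r1 (0.24 ± 0.045, adjusted p = 0.00950), a regulatory subunit of phosphatidylinositol 3-kinase. Cd86 and Cd274 were named after their values were seen, and both lost their calls without KO 2 and KO 4 (adjusted p = 0.0842 and 0.0709), as did Pik3r1. Ptpn11, the phosphatase SHP-2 that PD-1 recruits, was at 146 ± 6.61 and 184 ± 11.1 CPM under the knock-out and wild-type labels (-0.33 ± 0.053, adjusted p = 0.00304). Cd200r1, the receptor of CD200, was at 21.0 ± 3.35 and 33.9 ± 4.99 CPM (-0.69 ± 0.13, adjusted p = 0.00927, and 0.0508 without KO 2 and KO 4). Scaled on T cell identity genes, Ptpn11 was not called (adjusted p = 0.0570). Over these 11 genes the median log2 fold change was 0.24.

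Genes induced by the T cell receptor showed 1 rise and 1 fall among 12, beside 10.0% of all genes called in either direction. Cd69, an early activation and tissue retention marker, rose, at 907 ± 81.9 and 731 ± 73.4 CPM under the knock-out and wild-type labels (0.31 ± 0.085, edgeR adjusted p = 0.0490), a call kept in 2 of 8 refits with a library dropped. The gene that fell was Egr2. Nfatc1 had -0.28 ± 0.11 with all libraries (edgeR adjusted p = 0.146) and -0.40 without KO 4 (edgeR adjusted p = 0.00440), the 1 call in 8 refits with a library dropped. The list's median was 0.056.

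The genes closest in profile to Il21 and Cxcr5 over the 8 libraries were picked for that likeness, so that their label differences follow from the choice and are given as a description. Likeness was the root-mean-square difference between log2 CPM profiles, each centred on its own mean, over the 10502 genes whose mean log2 CPM was 1 or more. For Il21 these were Fam135a (0.23 log2 units), Slfn8 (0.24), a Schlafen gene, and I730030J21Rik (0.26). For Cxcr5 they were Bmp7 (0.29), a bone morphogenetic protein gene, Spock2 (0.36), a proteoglycan gene, and Exph5 (0.37). Log2 fold changes were -1.03 to -1.26 for the genes closest to Il21 and -1.29 for Bmp7 and -1.36 for Exph5 of those closest to Cxcr5, while Spock2 was 3.99-fold lower under the knock-out label, a larger difference than the 3.32-fold of Cxcr5. Slfn8 has close relatives in its family, so its counts are uncertain where reads were shared. Between the members themselves Il21 and Cxcr5 differed by 0.40 log2 units, Pdcd1 by 0.47 from Il21 and 0.59 from Cxcr5, and Bcl6 by 0.89 and 1.11.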

How the data were processed

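Per the labels' protocols, mRNA libraries came from a strand-keeping TruSeq kit with single reads of 81 bases. Per the submitters' processing notes, STAR placed the reads on mm10. The version of STAR is not given in the sources used here, nor is the way reads were assigned to genes and strands. The deposited table gives raw counts, whole numbers with a different total in every library (35198192 to 40310721). The authors' table has few genes of low count, and its gene lengths set CPM per kilobase.

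Groups came from the sample labels. The filter filterByExpr kept all 11354 genes, and CPM used TMM-scaled library sizes. Genes were tested with the quasi-likelihood test of edgeR 4.0.16 (R 4.3.3) on the label alone, with Benjamini-Hochberg adjustment over the whole table and a threshold of 0.05. The SE was derived from the fold change and F statistic. Log2 CPM used a prior count of 2. The common biological coefficient of variation was 0.116. Of the identifiers, 11337 matched RefSeq's GRCm38 gene table. Scripts were tested on simulated data.

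The members, gene lists and alternatives were chosen with earlier results of these data known. Named were Nlrp6, all members, up to 4 genes of each other list by smallest p, with the exceptions stated, and the 3 profiles closest to Il21 and to Cxcr5. Alternatives used limma 3.58.1, DESeq2 1.42.0, other scalings, filters and covariates, and dropped libraries. The host numbers were not treated as pairs.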

Additional observations from a re-analysis of the deposited data

Results flagged for a closer look

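Among 108 sets of 4 libraries (54 named genes under each label), 8 held a library set apart from the other 3 by more than Dixon's critical share of the range, where chance gives about 1 in 20. In KO 4, Tox was at 77.2 CPM (15.7 to 22.1 in the other libraries labelled knock-out), Cd86 at 28.7 CPM (18.4 to 19.4), Zap70 at 395 CPM (350.1 to 354) and Exph5 at 8.48 CPM (4.34 to 4.58). In KO 2, Pik3r1 was at 192 CPM (181 to 182). In WT 5, Cd244 was at 1.25 CPM (0.481 to 0.588 in the other libraries labelled wild type) and Cd22 at 1.98 CPM (1.22 to 1.35). In WT 1, Spock2 was at 21.5 CPM (7.11 to 9.40). Of the 8 members none stood apart by this measure, Pdcd1 in KO 4 included.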

How the results depend on the processing

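Il21 and Cxcr5 kept their direction under all 19 alternatives and their calls under 18, the exception being the myeloid level as a covariate (Il21 -1.79, Cxcr5 -2.78, 0 members and 7 genes called), which does not overlap between labels. With a library dropped, 804 to 1197 genes and 2 to 3 members were called, Il21 lay between -1.46 and -1.20, Cxcr5 between -1.94 and -1.47, Nlrp6 between 6.53 and 7.08, and the contrast of both genes with the other members between -1.28 and -1.01. DESeq2 called 5 members. With the description code as a term 745 genes were called. Same-numbered libraries had correlations of deviations of -0.138 to 0.256, over 0.1 in 2 of 4 numbers, so they were not treated as pairs. Across labels, libraries of different number had correlations of -0.265 to 0.198. These ranges overlap, so the check does not settle whether same-numbered libraries share a mouse. With the host number as a replicate block 1020 genes and 4 members were called: Il21 at -1.32, Cxcr5 at -1.71, and also Bcl6 (0.30, edgeR adjusted p = 0.0160) and Sh2d1a (-0.37, adjusted p = 0.0460). Of 969 values for 51 other named genes, 799 kept direction and side of the threshold, 109 lost and 40 gained a call, and 21 changed sign. Under the myeloid covariate these were Tox2 0.18, Cebpa -0.56, Ccr7 -0.22, Il2ra -0.14, Il6ra -1.70, Il2 -1.05, Cd22 0.045, Cd83 -1.37 and Cd86 -0.44. Scaled on T cell identity genes, which moved the median of all genes to 0.087, they were Icos 0.035, Cd22 0.022, Bcl9l 0.078 and Ddx6 0.069. Without KO 2 and KO 4 they were Cd22 0.18 and Bcl9l 0.085. With a library dropped, Cd22 ranged from -0.24 to 0.12, Bcl9l from -0.08 to 0.078 and Ddx6 from -0.08 to 0.029. The cause of these changes was not tested. Genes of few counts, such as Cd22 with 38 to 76 counts per library, have the widest counting error.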
